A study of Mus musculus with 15 samples.

Results

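This account describes 45 genes that act in mitosis and at the spindle, in the lungs of mice that took in rod-like carbon nanotubes (rCNT), stiff needle-shaped nanotubes. The genes were listed by name for their known roles, with earlier results of these data known. All 45 had a probe on the array. A gene was kept when at least 1 of its probes was well above background in 3 or more samples of at least 1 group, and 43 of the 45 were kept, among 25251 genes and unnamed transcripts tested. Aurkb, the kinase of the chromosomal passenger complex, and Ncapg, a condensin subunit, were not kept. Each was well above background in 2 of 4 aspirated rCNT samples and in 0 of the other 11 samples, so no change is given for either.

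In dividing cells, cyclin B and Cdk1 drive entry into mitosis, and the Polo and Aurora kinases build the spindle. The kinetochore joins chromosomes to spindle microtubules, and the spindle checkpoint holds back the anaphase-promoting complex until all are attached. That complex then marks securin and the cyclins for destruction, the chromosomes separate, and the midzone and contractile ring divide the cell. Most cells of an adult lung are not dividing, so transcripts made only around division are scarce in bulk lung RNA, while some genes of this kind, such as Bub3, are also active in cells that do not divide.

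The 15 samples were lung RNA of female C57BL/6 mice aged 7 to 8 weeks, in 4 groups, taken 24 h after the last exposure. In the aspirated rCNT group (4 samples) mice received 10 µg of rCNT in 50 µl of phosphate-buffered saline (PBS) per day by oropharyngeal aspiration for 4 days, and the PBS group (4 samples) received 50 µl of PBS the same way. The inhaled rCNT group (3 samples) breathed an aerosol of 6.2 to 8.2 mg/m3 for 4 h per day on 4 days, and its control group was untreated (4 samples). The labels do not give the dose that reached the lung by inhalation, so the routes are compared at these exposures and not at matched doses. Untreated replicate 1 has a title that speaks of PBS aspiration, against its remaining labels. It was kept as untreated, and the calls of the mitosis genes in each comparison that uses the untreated group were also computed without it. A single slide held every aspiration sample, and 2 other slides held the inhaled and untreated ones, so route, kind of control and slide cannot be told apart.

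Each value below is a log2 level, the log2 of the normalised fluorescence intensity of the brightest probe of a gene. Levels of different probes are not comparable, so only differences between samples are read. A change is called where limma, fitted to all 15 samples with dye as a covariate, gave a Benjamini-Hochberg adjusted p below 0.05 over all 25251 genes. Over the arrays the median spot signal was 56.5 to 149.5, between 54.6% and 64.7% of spots were well above background and 0 spots were saturated. Across the kept probes the correlation between replicates was 0.994 to 0.998, and neither probes nor genes are independent replicates. Of the 43 mitosis genes, 36 were well above background in all 15 samples. In bulk lung RNA, a higher value from more dividing cells and one from more transcript per dividing cell cannot be told apart.

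Nearly the whole list was higher after aspirated rCNT. Of the 43 genes, 42 were called higher than after PBS and 1, Pttg1, was called lower, while 47.2% of all genes tested were called, 20.6% higher and 26.5% lower. Cdc25c, Ttk and Cenpf were kept only through their detection in the aspirated rCNT samples, and Kif2c only through that in exposed samples, so a higher level there was part of how they were kept. Of the 39 genes detected in at least 1 control group 38 were called higher and 1 lower. The median change of the 43 was 1.80 on the log2 scale (3.48-fold), beside -0.04 over all genes. Its size depends on the processing, from 1.59 with the mean of a gene's probes to 2.51 with the processed signal. The change exceeded 2-fold for 37 of the 43 and 4-fold for 19, and 2.87% of all genes were called more than 2-fold higher. The 4 aspirated rCNT samples lay above all 4 PBS samples for 41 of the 43 genes, beside 19.2% of all genes.

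After inhaled rCNT most of the genes were higher too, by less. Compared with untreated lungs 34 of the 43 were called higher, 2 lower (Bub3 and Pttg1) and 7 were not called, beside 60.8% called among all genes, 28.4% higher and 32.5% lower. Of the 39 genes kept through a control group, 33 were called higher and 2 lower. The median change was 0.86 (1.82-fold), beside -0.02 over all genes. Of the 43, 17 rose more than 2-fold, beside 4.16% of all genes. The 3 inhaled samples lay above all 4 untreated samples for 33 genes and below them for 2, beside 25.7% and 29.1% of all genes. Among all calls of this comparison 46.6% were higher, and 27.5% when channels were only centred on their median, which moved the median of all genes to -0.15. The 43 genes still numbered 34 higher and 2 lower under that centring, with a median of 0.66.

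**Figure D1:**
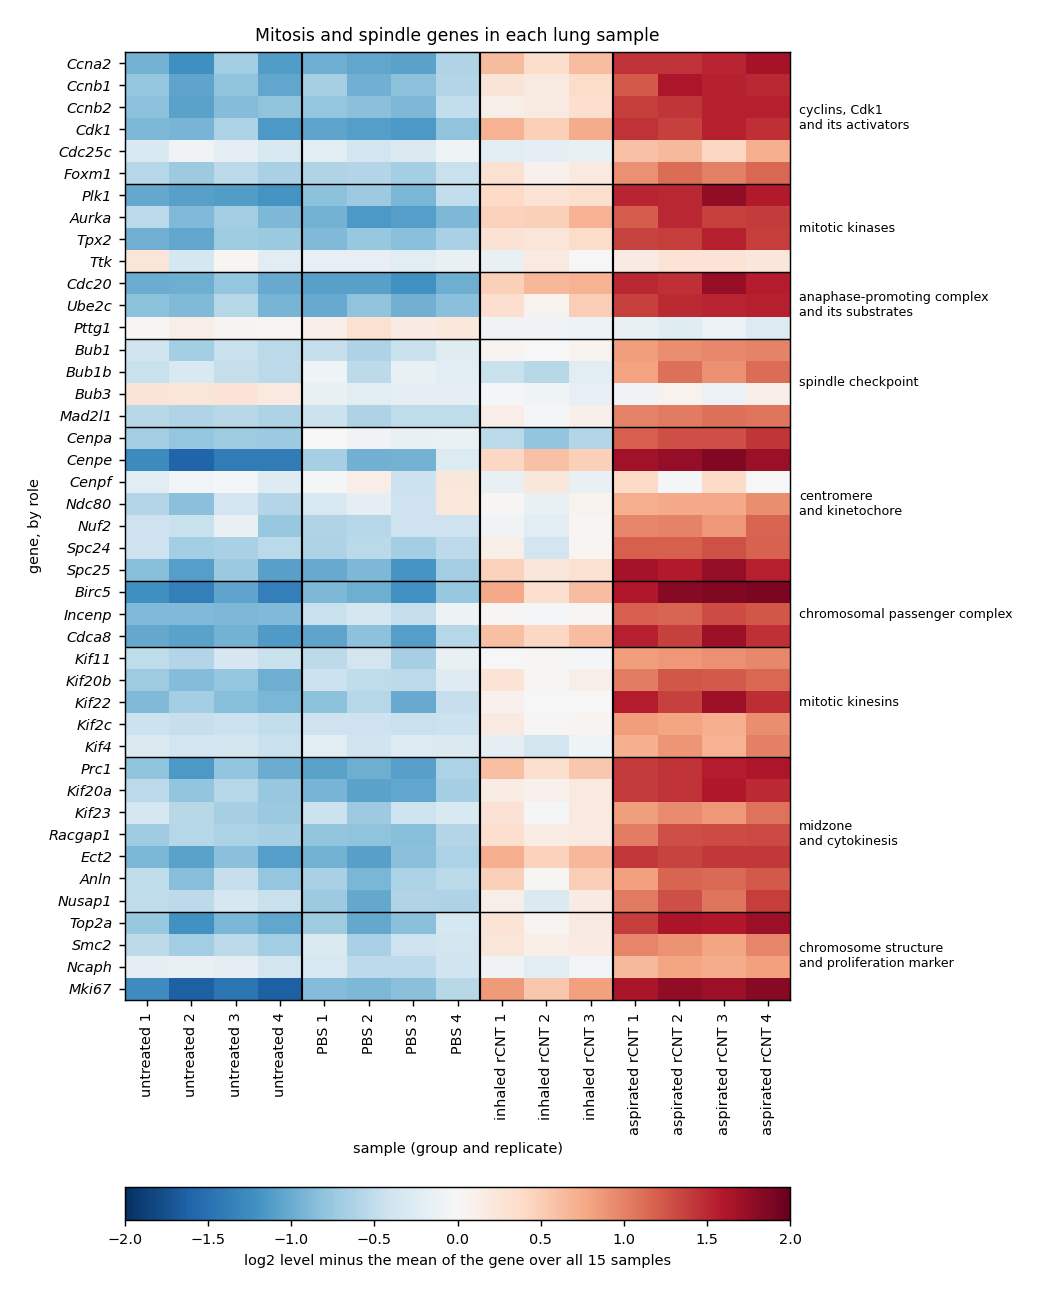
Log2 level of each of the 43 mitosis and spindle genes (rows, grouped by role) in each of the 15 lung samples (columns), minus the gene's mean over all 15 samples; red is above that mean and blue below, with colour limits at -2 and 2. The aspirated rCNT columns lie above all 11 other samples for 39 of the 43 genes, all but Pttg1, Bub3, Cenpf and Ttk. The inhaled rCNT columns are intermediate for most rows, but for Cenpa and Bub1b, among others, their mean lies below that of PBS.

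The mean log2 level over the 43 genes was 10.00 to 10.13 in the 4 aspirated rCNT samples, 9.01 to 9.15 in the 3 inhaled rCNT samples, 8.25 to 8.50 in the 4 PBS samples and 8.17 to 8.33 in the 4 untreated samples. The exposed groups lay apart from each other and from both controls, while the ranges of the 2 kinds of control overlapped. For 41 of the 43 genes the highest group mean was that of aspirated rCNT, and for 39 genes each aspirated rCNT sample exceeded all other 11 samples. Within groups some samples stood at one end for most of the genes. PBS replicate 4 held the highest PBS value for 31 of the 43 genes and the lowest for 0, and inhaled replicate 2 held the lowest inhaled value for 32. The median range within a group was 0.22 in the aspirated rCNT, 0.36 in the PBS, 0.22 in the inhaled rCNT and 0.26 in the untreated samples.

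Promoters of many mitotic genes carry a CHR element (cell cycle genes homology region), which the MuvB complex binds in its repressing and activating forms, and CCAAT boxes, which NF-Y binds. Since 42 of these genes moved together, their promoter windows were searched for both motifs, from 250 bases before to 50 bases after each RefSeq transcription start (build GRCm38.p6). The CHR was searched as TTTGAA or TTCGAA and the CCAAT box as CCAAT, on both strands, so that TTCAAA and ATTGG also count. The motifs share a base at 1 place in the 40 windows of the 37 genes of the 45 that had a window. Of these 37 genes 29 (78.4%) held a CHR word, 27 (73%) a CCAAT word and 25 (67.6%) both in one window. Among all 27025 genes with a window the shares were 21.7%, 41.1% and 8.61%. At least 2 CCAAT words stood in 18 of the 37 (48.6%), beside 13.3% of all genes. These are matches of letters and not measured binding sites.

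The first 4 windows below belong to the genes with the largest change after aspiration among those that hold both motifs. The last belongs to Birc5, which had the largest change of all with the main processing and holds neither word. The windows are written 5′ to 3′ along the gene's strand, with CHR and CCAAT words in capitals. The CHR word begins 18 bases before the start in Cdc20, 25 bases after it in Spc25, 116 and 98 bases before it in Mki67, and 71 and 15 bases before it in Cdk1.
Cdc20, chr4:118437294-118437593, minus strand: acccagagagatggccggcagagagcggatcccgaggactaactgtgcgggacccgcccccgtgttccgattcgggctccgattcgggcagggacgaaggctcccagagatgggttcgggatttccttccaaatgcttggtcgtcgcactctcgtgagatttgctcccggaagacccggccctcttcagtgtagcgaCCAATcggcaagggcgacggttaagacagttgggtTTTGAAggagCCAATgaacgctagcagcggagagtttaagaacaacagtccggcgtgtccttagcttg
Spc25, chr2:69206164-69206463, minus strand: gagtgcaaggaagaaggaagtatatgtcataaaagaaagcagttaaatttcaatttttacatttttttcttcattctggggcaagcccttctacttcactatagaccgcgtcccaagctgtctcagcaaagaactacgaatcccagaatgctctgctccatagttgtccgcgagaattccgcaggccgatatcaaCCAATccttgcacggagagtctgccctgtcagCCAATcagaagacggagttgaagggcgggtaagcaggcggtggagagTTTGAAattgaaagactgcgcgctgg
Mki67, chr7:135716330-135716629, minus strand: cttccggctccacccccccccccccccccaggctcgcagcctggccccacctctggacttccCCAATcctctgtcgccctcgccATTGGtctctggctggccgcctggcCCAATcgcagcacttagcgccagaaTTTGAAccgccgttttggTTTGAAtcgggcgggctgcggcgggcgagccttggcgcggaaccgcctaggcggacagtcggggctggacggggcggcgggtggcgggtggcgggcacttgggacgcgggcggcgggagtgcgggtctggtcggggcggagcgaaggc
Cdk1, chr10:69352863-69353162, minus strand: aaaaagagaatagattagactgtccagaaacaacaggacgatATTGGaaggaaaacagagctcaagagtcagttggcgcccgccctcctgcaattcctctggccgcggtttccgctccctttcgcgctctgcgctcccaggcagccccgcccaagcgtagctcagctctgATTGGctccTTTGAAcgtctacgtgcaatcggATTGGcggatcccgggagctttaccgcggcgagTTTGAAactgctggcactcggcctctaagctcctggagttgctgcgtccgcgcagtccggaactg
Birc5, chr11:117848987-117849286, plus strand: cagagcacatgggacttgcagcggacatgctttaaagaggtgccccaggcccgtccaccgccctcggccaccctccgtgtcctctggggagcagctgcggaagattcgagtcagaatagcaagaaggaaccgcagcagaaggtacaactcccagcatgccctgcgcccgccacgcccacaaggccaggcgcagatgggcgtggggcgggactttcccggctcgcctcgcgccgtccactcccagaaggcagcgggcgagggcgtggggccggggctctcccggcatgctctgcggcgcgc
Cdc20 has CCAAT words that begin 53 and 8 bases before the start, and in Cdk1 they begin 208, 80 and 48 bases before it. Birc5, Mad2l1, Ncaph, Nuf2, Nusap1 and Pttg1 held neither word in their windows, and all of them except Pttg1 were called higher after aspiration. Among the 36 tested genes with a window, the median change after aspiration was 2.24 for the 24 with both words and 1.58 for the 12 others. The ranges of these sets, 0.19 to 2.66 and -0.40 to 2.75, overlapped almost fully.

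All 6 genes of the cyclins, Cdk1 and its activators rose after aspiration, with a median change of 2.23, and 5 rose after inhalation, with a median of 1.14. Cdk1, the mitotic cyclin-dependent kinase, read 10.10, 10.03, 10.22 and 10.12 in the aspirated rCNT samples against 7.60, 7.55, 7.51 and 7.85 after PBS. The inhaled rCNT samples read 9.35, 9.13 and 9.39 and the untreated samples 7.76, 7.73, 8.02 and 7.51. Each exposed group lay wholly above its control. The Cdk1 change was 2.49 ± 0.10 (SE, adjusted p = 1.8e-11) after aspiration and 1.55 ± 0.11 (adjusted p = 7.9e-09) after inhalation. These sizes rest on the brightest probe. Of its dimmer probes 1 gave 0.95 and 0.61 by route, both called, and 1 gave -0.04 and 0.09, neither called. The cyclins Ccna2, Ccnb1 and Ccnb2 rose by 2.44, 2.23 and 2.23 after aspiration and by 1.54, 1.18 and 1.10 after inhalation. Dimmer probes of Ccnb1 gave less after inhalation, 0.45 and 0.16, the latter not called (adjusted p = 0.217). Foxm1, the transcription factor of G2 and mitotic genes, rose by 1.62 and 0.81. Cdc25c, a phosphatase that activates Cdk1, was the least changed of this set with the main processing. That rank depends on the processing: over the alternatives its change after aspiration ran from 0.79 to 2.75, and that of Foxm1 from 1.07 to 2.16. Cdc25c read 7.21, 7.28, 7.04 and 7.36 after aspirated rCNT and 6.23 to 6.54 after PBS, where 1 of 4 samples was well above background. The groups did not overlap and the Cdc25c change was 0.84 ± 0.08 (adjusted p = 5.2e-07). Cdc25c was kept only through the aspirated rCNT samples, so that p is no independent test of a rise. Cdc25c was not well above background in any inhaled or untreated sample, so no change is read after inhalation.

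Among the mitotic kinases and their activator all 4 genes rose after aspiration (median 2.27) and 3 after inhalation (median 1.23). Aurka, the Aurora kinase of the spindle poles, read 10.60, 10.89, 10.75 and 10.78 after aspirated rCNT against 8.44, 8.24, 8.29 and 8.49 after PBS. Inhaled samples read 9.85, 9.86 and 10.08 against 8.85, 8.50, 8.69 and 8.48 in untreated samples. Both exposed groups lay above their controls, and Aurka rose by 2.39 ± 0.09 (adjusted p = 1.1e-11) and 1.29 ± 0.10 (adjusted p = 2.4e-08). Plk1, the Polo-like kinase, rose by 2.33 after aspiration and 1.45 after inhalation, and Tpx2, which activates Aurora A on microtubules, by 2.21 and 1.17. Ttk, the checkpoint kinase Mps1, lay close to background. Its levels were 6.42, 6.53, 6.54 and 6.49 after aspirated rCNT, 6.05 to 6.11 after PBS, 6.11 to 6.47 after inhaled rCNT and 5.91 to 6.51 in untreated samples. The aspirated and PBS samples did not overlap, with an adjusted p of 0.0052. Ttk too was kept only through the aspirated rCNT samples, so that p is no independent test of a rise. Ttk was not well above background in any PBS sample and in 3 of 4 aspirated rCNT samples, so its change after aspiration is at least 1.23-fold. This bound compares the mean of the brighter group with the detection floor of the dimmer one. The inhaled and untreated samples overlapped.

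With the main processing the anaphase-promoting complex set held the second largest rise and the gene called lower. Cdc20, the activator that the checkpoint restrains, read 12.12, 12.08, 12.37 and 12.19 after aspirated rCNT against 9.54, 9.54, 9.41 and 9.65 after PBS. Inhaled samples read 11.11, 11.28 and 11.31 and untreated samples 9.62, 9.64, 9.85 and 9.62. Exposed and control groups were far apart, and Cdc20 rose by 2.66 ± 0.07 (6.30-fold, adjusted p = 4.2e-13) after aspiration and 1.57 ± 0.08 (2.96-fold, adjusted p = 2.8e-10) after inhalation. Ube2c, the ubiquitin-conjugating enzyme of the complex, rose by 2.38 and 1.10. Pttg1, securin, the inhibitor of separase that the complex destroys, went the other way. It read 13.76, 13.67, 13.79 and 13.63 after aspirated rCNT against 14.04, 14.21, 14.08 and 14.12 after PBS, all 4 exposed samples lying below all 4 controls, as for 23.3% of all genes. The change was -0.40 ± 0.05 (adjusted p = 9e-06). Inhaled samples read 13.85, 13.85 and 13.79 and untreated samples 13.93, 14.04, 13.97 and 13.96, also without overlap, with a change of -0.13 ± 0.06 (adjusted p = 0.046). That last call was lost without inhaled replicate 2 (-0.11, adjusted p = 0.168), without inhaled replicate 3 (-0.13, adjusted p = 0.100) or without untreated replicate 1, 2 or 4 (adjusted p 0.0732, 0.0828 and 0.0840), and the sign turned to 0.20 (adjusted p = 0.0066) with the mean of both probes. The dimmer Pttg1 probe fell by 0.47 after aspiration (adjusted p = 0.0002) and was 0.53 higher after inhalation (adjusted p = 1e-04), so the direction after inhalation differs between probes.

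Of the 4 spindle checkpoint genes all were called higher after aspiration, with a median of 1.30, and 2 were called higher and 1 lower after inhalation, with a median of 0.28. Mad2l1, which binds Cdc20 at unattached kinetochores, had the largest change when each gene is read from its brightest probe. It read 10.60, 10.65, 10.71 and 10.68 after aspirated rCNT against 9.18, 8.99, 9.10 and 9.11 after PBS. Inhaled samples read 9.75, 9.58 and 9.71 and untreated samples 9.06, 9.01, 9.05 and 8.99. With no overlap by either route, Mad2l1 rose by 1.56 ± 0.06 (adjusted p = 7.8e-12) and 0.65 ± 0.06 (adjusted p = 2.7e-07). Its other probes, both dimmer, rose by only 0.65 and 0.55 after aspiration. After inhalation they gave 0.02 and 0.03 and were not called (adjusted p = 0.893 and 0.715), so that rise rests on the brightest probe. The checkpoint kinase Bub1 rose by 1.37 and 0.54. Bub1b (BubR1) rose by 1.23 after aspiration, and after inhalation its difference was 0.01 (adjusted p = 0.909). Bub3, which binds both and is present in cells outside mitosis too, changed least. It read 11.60, 11.75, 11.56 and 11.80 after aspirated rCNT against 11.53, 11.46, 11.48 and 11.49 after PBS, just without overlap, a change of 0.19 ± 0.06 (adjusted p = 0.017). The Bub3 call after aspiration was lost without aspirated replicate 2 (0.17, adjusted p = 0.054), without aspirated replicate 4 (0.15, adjusted p = 0.071) and with median centring (0.23, adjusted p = 0.128). Inhaled samples read 11.65, 11.59 and 11.52 for Bub3 and untreated samples 11.94, 11.92, 11.95 and 11.87. All 3 inhaled samples were below all untreated ones, a fall by 0.34 (SE 0.07, adjusted p = 0.00029).

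All 7 centromere and kinetochore genes were called higher after aspiration (median 1.50) and 5 after inhalation (median 0.48). Spc25, a subunit of the microtubule-binding Ndc80 complex, read 11.85, 11.76, 11.94 and 11.73 after aspirated rCNT against 9.16, 9.28, 9.003 and 9.49 after PBS. Inhaled samples read 10.63, 10.40 and 10.48 and untreated samples 9.32, 9.08, 9.43 and 9.09. Spc25 thus rose by 2.59 ± 0.10 (adjusted p = 1e-11) and 1.29 ± 0.11 (adjusted p = 4.7e-08), without overlap. Its partners in the complex rose after aspiration by 1.80 (Spc24), 1.50 (Nuf2) and 0.97 (Ndc80), and after inhalation by 0.48, 0.36 and 0.58. The Nuf2 call after inhalation was lost without inhaled replicate 3 (0.29, adjusted p = 0.0751) or untreated replicate 4 (0.23, adjusted p = 0.0660), and the inhaled and untreated Nuf2 values overlapped. Cenpe, the kinetochore motor, rose by 2.47 and 1.92.

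Cenpa, the histone variant that marks centromeres, read 10.36, 10.46, 10.47 and 10.60 after aspirated rCNT against 9.17, 9.09, 9.02 and 9.04 after PBS, a rise of 1.39 ± 0.06 (adjusted p = 6.8e-11). Inhaled samples read 8.63, 8.38 and 8.59 and untreated samples 8.47, 8.39, 8.46 and 8.44, which overlapped, and the difference of 0.08 ± 0.07 was not called (adjusted p = 0.324). The controls themselves differed for Cenpa: all 4 PBS samples lay above all 4 untreated samples. Cenpf, a kinetochore and nuclear matrix protein, was near background, well above it in 3 of 4 aspirated, 2 of 4 PBS, 1 of 3 inhaled and 0 of 4 untreated samples. Cenpf was kept only through the aspirated rCNT samples, so its p after aspiration is no independent test of a rise. It read 6.71, 6.27, 6.70 and 6.31 after aspirated rCNT against 6.29, 6.45, 5.89 and 6.54 after PBS. The groups overlapped, and the called change of 0.21 ± 0.08 (adjusted p = 0.0348) was lost at the same value of 0.21 when dye was left out of the model (adjusted p = 0.248). It was also lost without aspirated replicate 1, 3 or 4 (0.19, 0.20 and 0.21, adjusted p 0.0815, 0.0788 and 0.0613) and without PBS replicate 2 or 3 (0.20 and 0.12, adjusted p 0.0671 and 0.147). Cenpf was 6.16 to 6.54 in the inhaled and 6.06 to 6.29 in the untreated samples, and its change after inhalation was not called (adjusted p = 0.0808).

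The chromosomal passenger complex corrects faulty attachments and then acts in cytokinesis, and its 3 measured genes rose by both routes (medians 2.41 and 1.61). With the main processing Birc5 (survivin) had the largest change after aspiration of all 43 genes. That rank depends on the processing: over the alternatives its change ran from 2.27 to 2.85, and that of Cdc20 from 2.61 to 2.79. The values of Birc5 that follow are those of its brightest probe, and its dimmer probes rose by only 0.79 and 0.69 after inhalation. It read 12.77, 12.99, 13.02 and 13.05 after aspirated rCNT against 10.26, 10.20, 9.96 and 10.42 after PBS. Inhaled samples read 11.93, 11.49 and 11.79 and untreated samples 9.94, 9.80, 10.12 and 9.80. Birc5 rose by 2.75 ± 0.11 (6.71-fold, adjusted p = 2.4e-11) and 1.82 ± 0.12 (3.53-fold, adjusted p = 5.7e-09), with no overlap. Incenp, the scaffold of the complex, rose least of the 3. It read 12.49, 12.45, 12.60 and 12.53 after aspirated rCNT, 10.84, 10.96, 10.82 and 11.19 after PBS, 11.31, 11.25 and 11.30 after inhaled rCNT and 10.40, 10.41, 10.38 and 10.40 untreated. The 4 groups did not overlap, and Incenp rose by 1.57 ± 0.07 (adjusted p = 6.9e-11) and 0.90 ± 0.08 (adjusted p = 7.3e-08). Cdca8 (borealin) rose by 2.41 and 1.61.

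**Figure D2:**
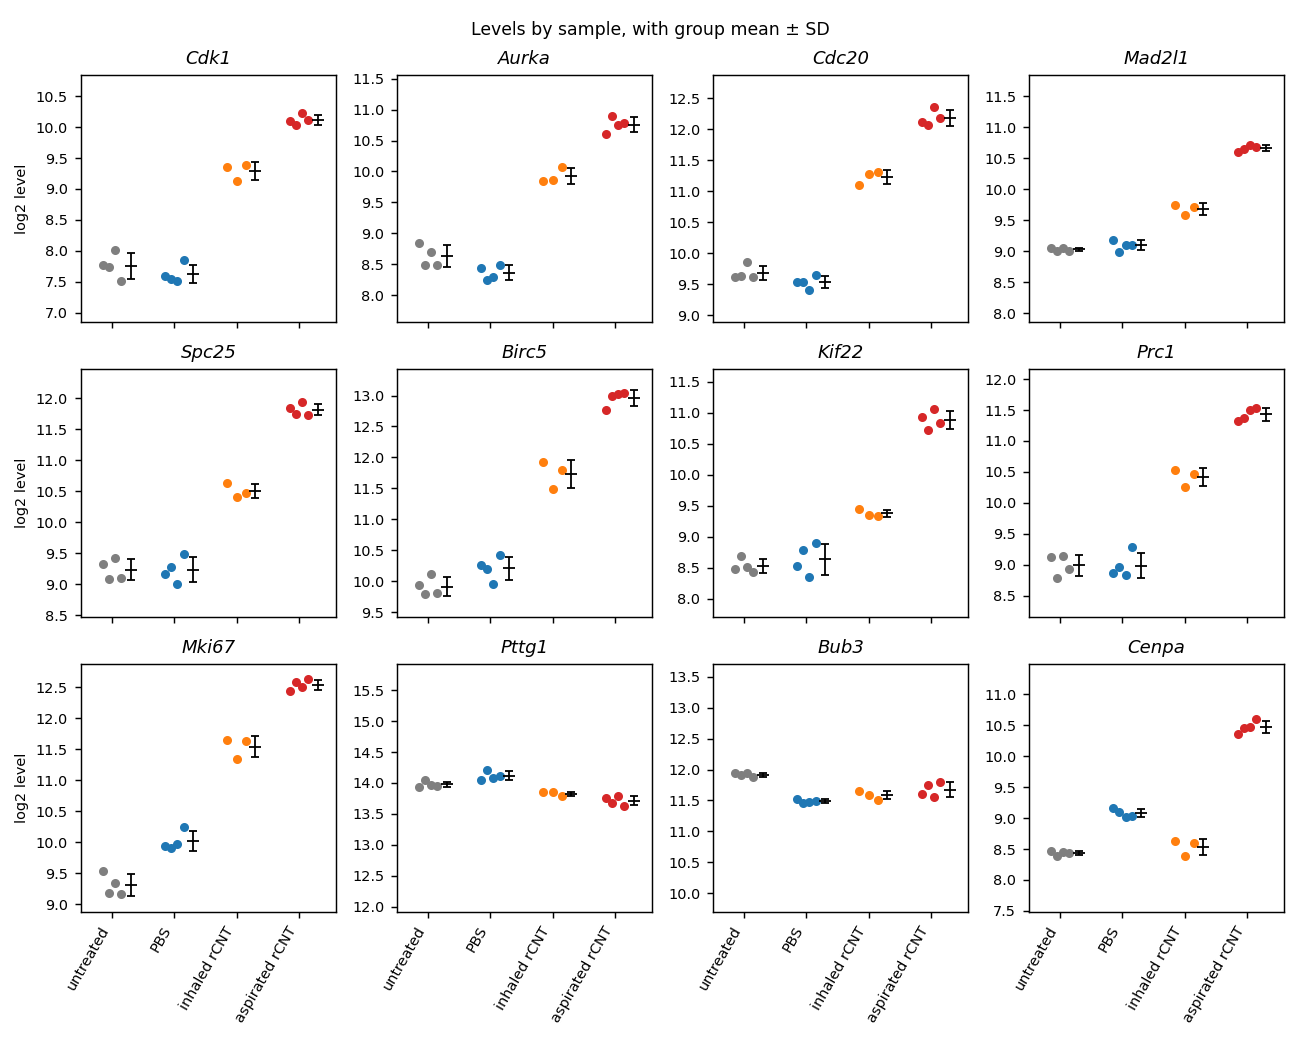
Log2 level by sample (points; y axes all span 4 log2 units) for the gene with the largest change after aspiration in each role, and for Pttg1, Bub3 and Cenpa; black bars are the group mean ± SD (n = 4, 4, 3 and 4 for untreated, PBS, inhaled rCNT and aspirated rCNT). In the 9 leading genes the groups rise from controls to inhaled to aspirated rCNT with no overlap of exposed samples and controls, while Pttg1 is lowest after aspiration, Bub3 is highest in untreated samples and Cenpa after inhalation lies below PBS.

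The mitotic kinesins, motors that move spindle microtubules and chromosomes, all rose after aspiration (5 of 5, median 1.33), and 4 rose after inhalation (median 0.53). Kif22, a chromosome arm motor, read 10.93, 10.72, 11.07 and 10.84 after aspirated rCNT against 8.53, 8.78, 8.34 and 8.90 after PBS. Inhaled samples read 9.44, 9.36 and 9.34 and untreated samples 8.47, 8.68, 8.51 and 8.44, so that Kif22 rose by 2.25 ± 0.08 (adjusted p = 8.2e-12) and 0.89 ± 0.09 (adjusted p = 4.8e-07). Kif4, the chromokinesin that works with Prc1, rose least. It read 8.02, 8.20, 8.01 and 8.31 after aspirated rCNT against 7.08, 6.91, 7.04 and 7.03 after PBS, a rise of 1.12 ± 0.07 (adjusted p = 1.6e-09) with no overlap. For Kif4 the inhaled samples (7.14, 6.95 and 7.23) overlapped the untreated samples (7.01, 6.93, 6.94 and 6.86), and the difference of 0.15 ± 0.07 was not called (adjusted p = 0.0874). Kif2c, the microtubule depolymerase MCAK, was well above background in all exposed and in 0 of 8 control samples. With its brightest probe and the main processing, Kif2c rose 2.36-fold after aspiration (adjusted p = 8.6e-11). That is the measured value, because the PBS samples lay at or above the detection floor. After inhalation the rise by that probe was at least 1.40-fold (adjusted p = 2e-06), a bound set by the floor. Its dimmer probe rose by less, 1.12 and 0.31 on the log2 scale. Over the alternatives the Kif2c change ran from 1.18 to 3.04 after aspiration and from 0.42 to 1.69 after inhalation. Kif2c was kept only through exposed samples, so neither p is an independent test of a rise. Kif11, the bipolar spindle motor Eg5, rose by 1.33 and 0.49, and Kif20b, a kinesin of late cytokinesis, by 1.59 and 0.97.

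Every one of the 7 midzone and cytokinesis genes rose by both routes, with medians of 1.98 after aspiration and 0.86 after inhalation. Prc1, which bundles midzone microtubules, read 11.32, 11.38, 11.49 and 11.54 after aspirated rCNT against 8.86, 8.96, 8.84 and 9.29 after PBS. Inhaled samples read 10.52, 10.25 and 10.47 and untreated samples 9.13, 8.78, 9.14 and 8.93, giving rises of 2.44 ± 0.11 (adjusted p = 5.7e-11) and 1.42 ± 0.12 (adjusted p = 5.2e-08). Kif20a, a midzone kinesin, read 9.83, 9.88, 10.03 and 9.92 after aspirated rCNT against 7.51, 7.36, 7.40 and 7.75 after PBS, and 8.58, 8.52 and 8.62 after inhaled rCNT against 7.90, 7.63, 7.86 and 7.67. Its rises were 2.41 ± 0.09 (adjusted p = 8.2e-12) and 0.81 ± 0.10 (adjusted p = 2.5e-06). Exposed and control samples did not overlap for either gene.

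Kif23, the kinesin of centralspindlin, had the smallest change of the midzone set after aspiration. Kif23 read 8.70, 8.81, 8.73 and 8.95 after aspirated rCNT against 7.44, 7.15, 7.46 and 7.56 after PBS, and 8.15, 7.84 and 8.07 after inhaled rCNT against 7.51, 7.31, 7.21 and 7.13. It rose by 1.40 ± 0.09 (adjusted p = 5.8e-09) and 0.71 ± 0.10 (adjusted p = 1.7e-05), still with no overlap. Nusap1, a spindle microtubule bundler, read 9.36, 9.60, 9.39 and 9.71 after aspirated rCNT against 7.60, 7.30, 7.71 and 7.70 after PBS. Its inhaled values of 8.43, 8.03 and 8.48 lay above the untreated values of 7.82, 7.80, 7.99 and 7.87 by a narrow margin. Nusap1 rose by 1.93 ± 0.10 (adjusted p = 2.3e-10) and 0.41 ± 0.10 (adjusted p = 0.0028). The second centralspindlin subunit Racgap1 rose by 1.98 and 0.86, the cytokinesis regulator Ect2 by 2.28 and 1.59, and the contractile ring scaffold Anln (anillin) by 1.77 and 0.96.

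The last 4 genes concern chromosome structure and proliferation, and all 4 rose after aspiration (median 1.83) and 3 after inhalation (median 0.96). Mki67 encodes the Ki-67 protein that coats mitotic chromosomes and serves as a marker of cycling cells. It read 12.44, 12.58, 12.51 and 12.63 after aspirated rCNT against 9.93, 9.91, 9.97 and 10.25 after PBS. Inhaled samples read 11.65, 11.35 and 11.63 and untreated samples 9.54, 9.18, 9.34 and 9.16. Mki67 rose by 2.52 ± 0.10 (5.75-fold, adjusted p = 1.2e-11) after aspiration. Compared with untreated lungs it had the largest change of the 43 genes after inhalation, 2.22 ± 0.11 (4.67-fold, adjusted p = 1.8e-10). Ncaph, a condensin I subunit, read 10.53, 10.67, 10.63 and 10.70 after aspirated rCNT against 9.57, 9.36, 9.37 and 9.48 after PBS, a rise of 1.19 ± 0.07 (adjusted p = 1.4e-09). For Ncaph the inhaled samples (9.81, 9.67 and 9.82) overlapped the untreated samples (9.69, 9.73, 9.70 and 9.52), and the difference of 0.10 ± 0.08 was not called (adjusted p = 0.240). Top2a, the topoisomerase that untangles sister chromatids, rose by 2.32 and 1.14, and the condensin ATPase Smc2 by 1.34 and 0.78.

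**Figure D3:**
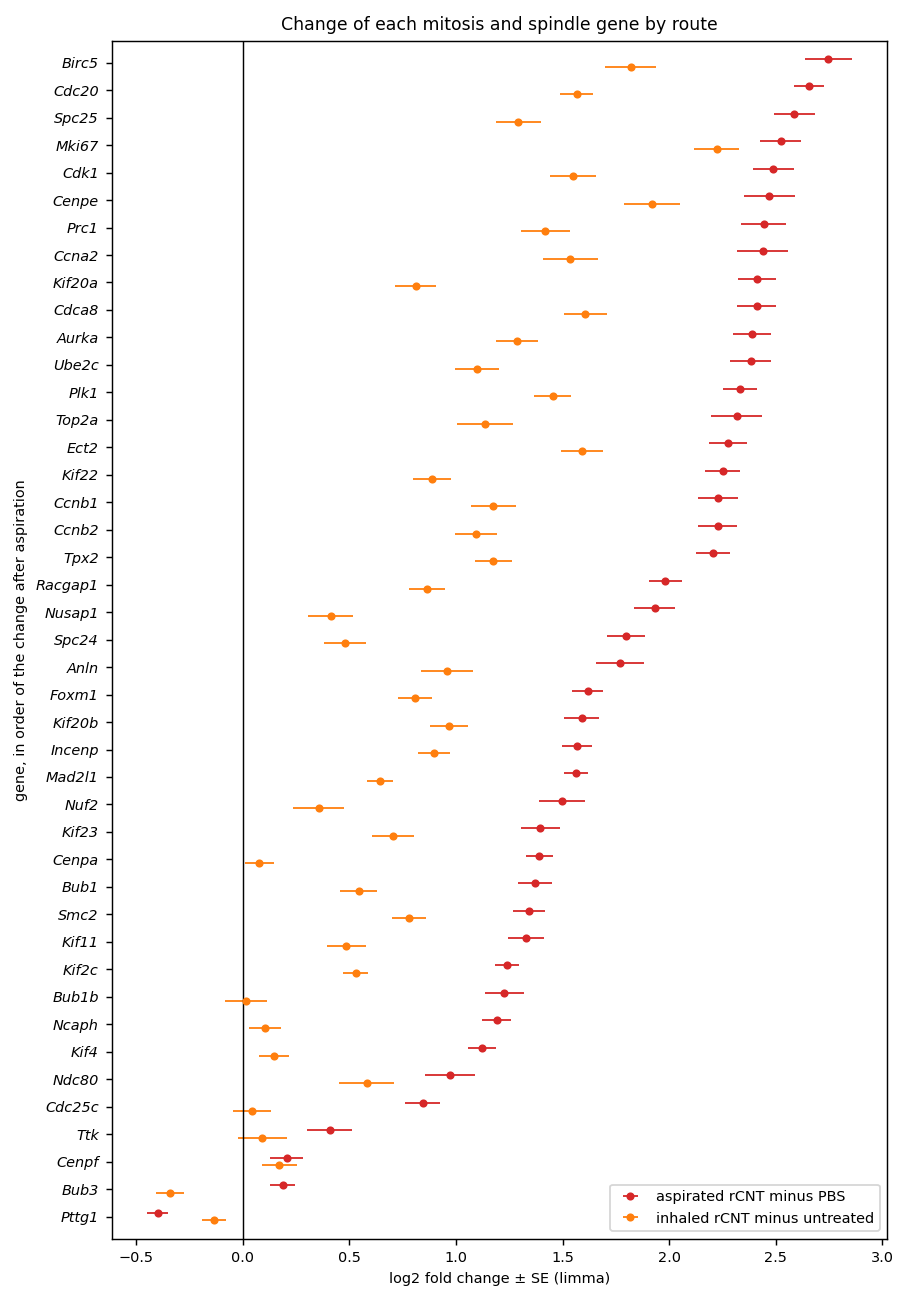
Log2 fold change ± SE from limma for each of the 43 genes, with aspirated rCNT against PBS in red and inhaled rCNT against untreated in orange, in order of the change after aspiration. The red point lies to the right of the orange one for 42 of the 43 genes, Pttg1 being the exception, and the orange points of Mki67 and Cenpe lie nearest to their red points among the genes that rose more than 4-fold after aspiration. Points of Cdc25c, Ttk, Cenpf and Kif2c rest on groups in which the gene was not well above background in some or all samples.

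The response differed between the routes for most of the genes. The difference of the effects, aspirated rCNT minus PBS against inhaled rCNT minus untreated, was called larger after aspiration for 38 of the 43 genes and lower for 1, Pttg1, beside 57% of all genes called, 28.4% higher and 28.5% lower. Of the 39 genes kept through a control group, 36 were called larger after aspiration and 1 lower. The median difference was 0.92, and the median ratio of the inhalation change to the aspiration change on the log2 scale was 0.499. With median centring the share of higher calls among all calls of this difference went from 49.9% to 69.4%, with a shift of 0.14 in the median of all genes. The largest differences were those of Kif20a (1.60 ± 0.13, adjusted p = 7.2e-08), Nusap1 (1.52 ± 0.14, adjusted p = 3e-07), Kif22 (1.36), Spc24 (1.32) and Cenpa (1.31). The difference was not called for Ttk, Cenpf, Ndc80 and Mki67. For Mki67 it was 0.30 ± 0.14 (adjusted p = 0.0837), and it was called without PBS replicate 4 (0.41, adjusted p = 0.0096) or untreated replicate 4 (0.37, adjusted p = 0.0338) and with median centring (0.61, adjusted p = 0.0166). For Ndc80 it was 0.39 (adjusted p = 0.0695), and it was called without PBS replicate 4 (0.54, adjusted p = 0.0048) or untreated replicate 2 (0.48, adjusted p = 0.0241), with median centring (0.56, adjusted p = 0.0158) and with cyclic loess (0.60, adjusted p = 0.0108). No difference is given for Ttk, which was well above background in 0 PBS, 0 inhaled and 1 untreated sample, nor for Cdc25c, which counts among the 38 although it was detected in no inhaled or untreated sample. Kif2c, detected in no control sample, also counts among the 38. Cenpe, at 0.55 (adjusted p = 0.0148), lost its call within either slide of the inhalation samples at slightly larger values (0.61 and 0.59, adjusted p 0.0689 and 0.0754), and with the processed signal at a smaller one (0.43, adjusted p = 0.147).

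The 2 kinds of control were close for most of the genes. After PBS, compared with untreated lungs, 10 of the 43 genes were called higher, 5 lower and 28 were not called, beside 59.4% called among all genes, 26.3% higher and 33.1% lower. The median was 0.08. All 4 PBS samples lay above all 4 untreated ones for 7 genes and below them for 2, beside 21.8% and 27.5% of all genes. Genes called higher after PBS included Mki67 (0.71), Cenpe (0.71), Cenpa (0.64), Incenp (0.55), Ndc80 (0.42), Kif20b (0.40) and Plk1 (0.37). Aurka, Bub3, Kif20a, Nusap1 and Ncaph were called lower, of which Bub3 (-0.43, adjusted p = 1.7e-05) had the largest fall. With one of PBS replicate 2, PBS replicate 3 or untreated replicate 3 left out 2 genes were called lower, and 3 without untreated replicate 1. Among all calls 44.3% were higher, and 59.2% with median centring. Route of handling and slide differ with these groups and cannot be told apart.

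Set against PBS instead of untreated lungs, the inhaled samples gave a similar count, 34 of the 43 higher and 2 lower (Pttg1 -0.27 and Cenpa -0.56), beside 55.2% of all genes called, 27.5% higher and 27.7% lower. Of the 39 genes kept through a control group, 33 were called higher and 2 lower. The median was 0.77. Mki67, which had the largest change against untreated lungs, rose by 1.51 against PBS. That was less than Cdc20 (1.72), Cdk1 (1.68), Aurka (1.55) and Birc5 (1.52). For Cenpa all 3 inhaled samples lay below all 4 PBS samples, although they overlapped the untreated ones. The share of higher calls among all genes was 49.9%, and 21.1% with median centring, which moved the median of all genes to -0.29. Inhaled rCNT and PBS samples lay on different slides, and this comparison shares samples with the others.

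Values from other probes of the same genes were in the same direction after aspiration for all but 1 of 17. The 17 probes belong to 13 of the 43 genes, and 15 were called higher and 1 lower (Pttg1) after aspiration when all 34271 kept probes were tested one by one. After inhalation 12 were called higher, the Pttg1 probe among them, and 0 lower. The second Mki67 probe gave 2.46 and 2.36 and the second Ube2c probe 2.41 and 1.33, close to the brightest probes. All 17 are dimmer than the probe that stands for the gene. After aspiration 14 gave a smaller change, such as the 2 other probes of Birc5 (2.21 and 1.87), the 2 of Ccnb1 (1.57 and 1.30) and that of Tpx2 (0.29), and 3 a larger one (Incenp, Pttg1 and Ube2c). The exception was 1 of the Cdk1 probes, near background, with a change of -0.04 (adjusted p = 0.696).

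**Figure D4:**
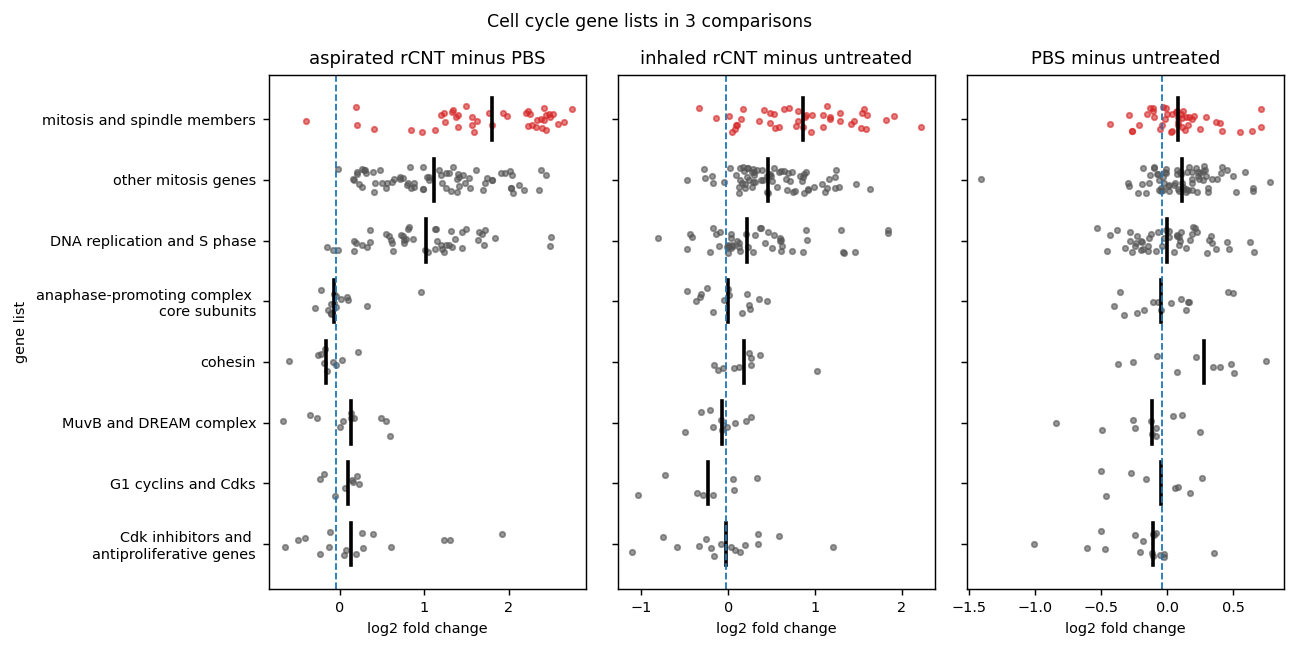
Log2 fold change of each gene (points) in the 43 mitosis and spindle genes (red) and in 7 other cell cycle lists (grey), in the 3 comparisons named above the panels; black bars are list medians and the dashed line is the median of all genes tested. Medians of the mitosis and S phase lists lie to the right of that line after aspirated and inhaled rCNT, and the points of the other lists straddle it. After inhalation the S phase points straddle it too, from -0.81 to 1.85. The cohesin median there (0.18) lies near the S phase median (0.22).

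Other genes of the cell cycle were described from 7 further lists. Among all genes 20.6% were called higher and 26.5% lower after aspiration, and 28.4% and 32.5% after inhalation. Of 70 other mitosis genes 66 were called higher and 0 lower after aspiration (median 1.11), and 53 higher and 4 lower after inhalation (median 0.46). Pbk, a mitotic kinase, rose by 2.44 and 0.92, and Cdca3, which triggers the destruction of Wee1, by 2.38 and 1.14. Zw10, a kinetochore and membrane traffic protein, had the smallest value of the list, -0.02 after aspiration (adjusted p = 0.850), with a sign that turned under cyclic loess. Of 48 genes of DNA replication and S phase 45 were called higher and 1 lower after aspiration (median 1.02), and 24 higher and 5 lower after inhalation (median 0.22). With median centring 15 of them were called higher after inhalation, beside 3838 of all 25251 genes. Rrm2, the ribonucleotide reductase subunit made in S phase, rose by 2.50 and 1.46, and Uhrf1, which maintains DNA methylation at replication, by 2.49 and 1.85. Gins3, a subunit of the replicative helicase, fell by 0.16 after aspiration (adjusted p = 0.04999).

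The counts of the next 5 lists are read beside the shares of all genes, 20.6% called higher and 26.5% lower after aspiration and 28.4% and 32.5% after inhalation. Of 15 anaphase-promoting complex genes 2 were called higher after aspiration (Anapc15 by 0.96 and the activator Fzr1 by 0.32) and 2 lower (Anapc16, at -0.30, had the smallest value), and 6 higher and 5 lower after inhalation. Of 10 cohesin genes 0 were called higher and 3 lower after aspiration, with Stag2, a core subunit, at -0.61. The cohesin release factor Wapl, at 0.21, and the cohesin regulator Pds5a, at 0.03, were not called (adjusted p = 0.0711 and 0.708). After inhalation 5 cohesin genes were called higher, with Pds5a at 1.02, and 0 lower. Among 11 genes of the MuvB and DREAM complex, which binds the CHR, 3 were called higher and 3 lower after aspiration, with Lin9 at 0.60, Rbl1 at 0.54 and Tfdp2 at -0.67, and 1 higher and 2 lower after inhalation. After aspiration the MuvB and anaphase-promoting complex counts lie near or below the shares of all genes.

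The G1 cyclins and Cdks numbered 1 higher and 2 lower of 8 after aspiration, Cdk4 at 0.23 and Ccnd2 at -0.24 being the extremes called, and Cdk2 at 0.20 was not called (adjusted p = 0.0672). After inhalation 1 was called higher and 5 lower. Of 16 Cdk inhibitors and antiproliferative genes 7 were called higher and 4 lower after aspiration, and 3 higher and 5 lower after inhalation. Cdkn3, a phosphatase that acts on Cdk1 and is itself made in G2 and mitosis, rose by 1.92, and the stress gene Gadd45g by 1.31. Cdkn1c, the inhibitor p57, fell by 0.65 after aspiration.

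Markers of several cell types moved with the exposures, to be read beside the same shares of all genes. After aspiration 6 of 8 measured macrophage and monocyte markers were called higher and 2 lower (median 1.19), and after inhalation 2 higher and 3 lower (median -0.23). After aspiration C1qb rose by 2.20, C1qa by 2.11, Ccr2 by 1.47, Adgre1 by 1.29 and Mrc1 by 1.09, while Lyz2 and Itgam, both among the brightest, changed by -0.58 and -0.37. A summed level adds probes of unequal brightness and follows the brightest of them. The summed linear level was 97536 to 106420 after aspirated rCNT, 98069 to 111290 after PBS, 85358 to 87179 after inhaled rCNT and 87447 to 104050 untreated. Of 8 T cell markers 3 were called higher and 0 lower after aspiration, and 1 higher and 6 lower after inhalation. T cell sums were 11158 to 12562 and 8828 to 10402 in the aspirated rCNT and PBS samples, and 8562 to 9401 and 9691 to 15333 in the inhaled and untreated samples. All 6 B cell markers were called lower after inhalation and 0 of 6 changed after aspiration, with sums of 2060 to 3327 in the inhaled and 6494 to 26078 in the untreated samples. All 6 NK cell markers were likewise called lower after inhalation (sums 2552 to 3760 against 7943 to 17598), and 1 of 6 after aspiration. Eosinophil markers were called higher for 4 of 5 after aspiration, with sums of 3348 to 4798 against 1996 to 2310 after PBS, and 1 was called higher and 2 lower after inhalation. Of 6 neutrophil markers 2 were called higher and 1 lower after aspiration, and 1 higher and 4 lower after inhalation. Of 7 alveolar macrophage markers 1 was called higher and 3 lower by each route.

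Goblet cell markers rose by both routes (5 of 5), with sums of 112410 to 305920 after aspirated rCNT, 13893 to 23526 after PBS, 76476 to 93459 after inhaled rCNT and 6821 to 9118 untreated. Ciliated cell markers were called higher for 5 of 5 after inhalation, with sums of 19236 to 22795 against 6731 to 7213 untreated, and 4 higher and 1 lower after aspiration. Both measured club cell markers were called lower after aspiration, with sums of 141460 to 271060 against 446630 to 538570 after PBS, and 1 after inhalation. Of 5 fibroblast markers 2 were called higher and 2 lower after aspiration and 5 lower after inhalation. Of 4 alveolar type 1 markers 1 was called higher and 3 lower after aspiration and 2 lower after inhalation, and of 5 alveolar type 2 markers 2 and 1 were called lower. Of 4 mesothelial markers 3 were called lower by each route and 1 higher after inhalation. Endothelial markers fell, 5 of 6 after aspiration and 6 of 6 after inhalation. Their sums were 54629 to 66969 and 83201 to 91883 in the aspirated rCNT and PBS samples, and 63893 to 78933 and 107250 to 118240 in the inhaled and untreated samples. Of 5 markers of immature thymocytes, a dividing cell type, Rag1, Rag2 and Ptcra were not kept by the detection filter. The other 2 gave sums of 306 to 373 after aspirated rCNT and 365 to 407 after PBS, and 218 to 237 after inhaled rCNT and 351 to 527 untreated. Of 5 measured bone marrow and erythroid markers 1 was called higher and 2 lower after aspiration and 0 higher and 4 lower after inhalation. The lung's own Sftpc, the surfactant gene of alveolar type 2 cells, was well above background in all 15 samples. The part of any of these cell types in the changes of the mitosis genes was not tested.

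Values were also formed within each dye and slide. In Cy3 samples alone 42 of the 43 genes were higher after aspiration and 40 after inhalation, with medians of 1.83 and 0.90, and in Cy5 samples alone 42 and 37, with medians of 1.77 and 0.75. The Cy5 value after inhalation sets inhaled replicate 2 alone, on slide 3, against untreated replicates 2 and 3, on slide 2. Within slide 2, which held untreated replicates 1, 2 and 3 and inhaled replicate 1, 33 of the 43 genes were called higher, 1 lower, and the median was 0.98. Slide 3, with untreated replicate 4 and inhaled replicates 2 and 3, gave 33 higher, 0 lower and a median of 0.89. These within-slide fits take the spread of a lone sample from the other samples.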

How the data were processed

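Lung RNA was hybridised to 2-colour Agilent arrays, and each sample is 1 channel (Cy3 or Cy5) of an array. The 15 samples came from 14 arrays on 3 slides, and inhaled replicate 2 and untreated replicate 4 share an array. Per the file headers, intensity values were extracted with Agilent Feature Extraction 11.0.1.1. The deposited median spot and background intensity of each sample's own channel was used. The processed intensity, already corrected for background and dye by the authors' software, per the file headers, served as an alternative. The deposited series table, taken as log2 from its values, was another. Its direction and scale follow the own channel, and its centring is not given in the sources used here.

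Background was corrected with normexp (offset 50). Log2 values without control spots and outlier flags were quantile-normalised over the 15 channels, and spots of a probe were averaged. The detection filter kept 34271 of 55681 probes. Probes were named by RefSeq accession (GRCm38.p6, names only), and the brightest probe stood for a gene. Kept probes without a symbol (13429) entered the fit under their own identifier. limma 3.58.1 in R 4.3.3 fitted group and dye with 10 residual degrees of freedom, two-sided. Depth does not apply to arrays, and the number of arrays limits the precision. Nothing in the labels ties a sample to a single mouse, and the array names of the inhalation and untreated samples speak of pools, so those samples may each hold RNA of several mice. The p-values measure only how these samples spread, and that spread may be technical.

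The genes and all lists were chosen with earlier results of these data known. Per-sample values were given for the genes with the largest and smallest change after aspiration in each role, for genes called against the majority, and for Mki67. In the other lists, the 2 largest and the 1 smallest changes are named. The values of further genes of the list and of the lists beside it are given as additions to that rule. Alternatives covered signal, normalisation, filter, probe, dye, slide, pairing, variance model and each replicate. Promoter windows came from RefSeq and were searched with Python 3.11.15.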

Additional observations from a re-analysis of the deposited data

Results flagged for a closer look

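In 1 of 63 sets of 4 replicates tested over the 21 genes with per-sample values, 1 sample lay far from the others. Cdc20 in untreated replicate 3 read 9.85, and the other 3 untreated samples lay between 9.62 and 9.64. The gap took 0.915 of the range of the group, above the limit of Dixon's test for 4 samples, and chance gives about 1 such set in 20. All inhaled and aspirated samples remained above it.

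The change differed between the routes for 39 genes by limma's test of the difference, Cdc25c among them, for which no value is given because it was detected in no inhaled or untreated sample. Kif2c, detected in no control sample, is also among them. Among the genes with per-sample values the difference, aspiration minus inhalation, was 0.94 for Cdk1, 1.10 for Aurka, 1.09 for Cdc20, 0.53 for Bub3, 0.92 for Mad2l1, 1.31 for Cenpa and 1.29 for Spc25. It was 0.93 for Birc5, 0.67 for Incenp, 1.36 for Kif22, 0.97 for Kif4, 1.02 for Prc1, 1.60 for Kif20a, 0.69 for Kif23, 1.52 for Nusap1 and 1.09 for Ncaph. Pttg1 had a difference of -0.26. Route, kind of control, dose and slide cannot be told apart in these differences.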

How the results depend on the processing

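The alternatives numbered 22 after aspiration, 24 after inhalation, 31 for the difference of the routes, 22 for the controls and 21 for inhaled rCNT against PBS, and 7 of the 43 genes could not be tested in 1 of them, the filter that asks for detection in all samples. In every alternative that tested them, 41 of 43 called genes kept their call and direction after aspiration, 30 of 36 after inhalation, 37 of 39 for the difference, 8 of 15 in the controls and 32 of 36 for inhaled rCNT against PBS. Those that did not after inhalation were Bub3, Kif11, Ndc80, Nuf2, Pttg1 and Spc24. Within slide 3 the changes were -0.28 for Bub3, 0.39 for Kif11, 0.51 for Ndc80 and 0.38 for Spc24. Within slide 2 that of Nuf2 was 0.24. Leaving out 1 replicate at a time gave 40 to 42 genes higher and 1 lower after aspiration, 33 to 34 higher and 1 to 2 lower after inhalation, 38 to 40 and 1 for the difference, 8 to 10 and 2 to 6 in the controls and 34 to 35 and 2 to 3 for inhaled rCNT against PBS. S phase genes called higher numbered 41 to 44 and 22 to 26 by route, and other mitosis genes 63 to 66 and 47 to 55. The size of the median change moved more than the counts. After aspiration it was 1.59 with the mean of a gene's probes, 2.07 with offset 16 and 2.51 with the processed signal. After inhalation it ran from 0.66 with median centring to 1.17 with the processed signal.

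After inhalation 1 gene was called lower, instead of 2, under cyclic loess, offset 16, no filter, the mean of a gene's probes, no dye term, slide as a fixed block, within slide 2, only the 2 groups and the series table, and 0 within slide 3. With median centring 2 genes were lower in the controls, 0 in the difference and 4 for inhaled rCNT against PBS. Under that centring 15 S phase genes were higher after inhalation, beside 3838 of all 25251 genes. The difference also had 0 lower within slide 3. Residual correlations of same-numbered samples ran from -0.14 to 0.29 without a common sign, so the numbers were not taken to pair them. The replicate block gave 42 higher and 1 lower after aspiration, 34 and 1 after inhalation and 38 and 1 for the difference.

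Signs turned for small changes. After inhalation Bub1b was -0.020 with the processed signal, -0.023 with median centring and -0.15 within slide 2, and -0.056 to 0.085 with 1 replicate left out. Ttk was -0.23 with the processed signal and -0.20 within slide 2, and -0.026 to 0.22 with 1 replicate left out. Cdc25c was -0.036 within slide 2. With median centring Cenpa was -0.039 and Ncaph -0.15 after inhalation, Ncaph was 0.016 in the controls, and the difference of Pttg1 was 0.33. Pttg1 after inhalation was 0.010 with cyclic loess and 0.20 with the mean of its probes. Zw10 after aspiration was 0.036 with cyclic loess, and -0.059 to 0.020 with 1 replicate left out. The Cenpf difference was -0.042 to 0.089 with 1 replicate left out. The cause of these changes was not tested. Near background, signal limits Ttk, Cenpf, Cdc25c, Kif2c, Aurkb and Ncapg.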
